A study of Mus musculus with 4 samples.

Results

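Cytokine and tumor necrosis factor (TNF) family receptors were followed in 4 kidney RNA samples of female CB-17 SCID mice, 2 labelled saline and 2 labelled immune complex. The receptors were the genes whose symbol begins with Il, a number and r, or with Tnfrsf and a number, together with Il6st, Osmr, Lifr, Ifnar1, Ifnar2, Ifngr1, Ifngr2 and Csf2rb. The rule found 70 of the 38924 genes in the count tables: 41 by the interleukin receptor pattern, 21 by the TNF receptor pattern and 8 by name. Tnfrsf22 has 2 rows, named Tnfrsf22_1 and Tnfrsf22_2 in the files, and Il1rn, which the pattern also takes, encodes a secreted antagonist of the interleukin-1 (IL-1) receptor rather than a receptor.

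The immune complex group received IgG bound to galactose-deficient IgA1 (Gd-IgA1), the glycoform of IgA1 that is the autoantigen of IgA nephropathy, and the saline group received saline. Injections went into the tail vein on alternate days, 3 times within 7 days, and kidneys were taken on the day after the last dose. All 4 libraries come from the same strain, sex and organ, with the Balb/c background; age is not given. SCID mice lack mature T and B cells because antigen receptor genes cannot be rejoined, and they keep macrophages, neutrophils and natural killer (NK) cells. The labels do not state that the libraries of a group come from separate animals, so the p-values measure only the spread between these samples, which may be technical.

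Cytokine receptors of the type I and type II classes carry no enzyme of their own and signal through bound Janus kinases (JAK) and STAT transcription factors, usually as pairs of a ligand-specific chain and a shared chain. IL-1 and IL-17 receptors work through the adaptors MyD88 and Act1 and through TRAF proteins. TNF receptors recruit TRAF proteins or, where they carry a death domain, adaptors that can start cell death. In kidney, TNF receptors, the TWEAK receptor Fn14 and receptors of the IL-6, IL-17 and interferon families are present on tubular, endothelial and resident immune cells, and they are known from studies of tubular injury and glomerulonephritis.

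The libraries held 19675879 to 22791960 reads assigned to genes. A pair of scales is used: the authors' RPKM, which counts exon reads per length and serves to compare genes, and CPM (reads scaled to a fixed library size) from all reads of a gene, exon and intron, scaled by TMM factors, which serves to compare groups. Kidney markers were abundant: the 6 proximal tubule genes summed to 6394 to 7397 CPM and the 5 thick ascending limb genes to 5263 to 7978 CPM per library. The 11 T cell genes summed to 12.4, 13.9, 12.9 and 13.6 CPM: Cd3d, Cd3e, Cd3g, Cd8b1, Cd5 and Cd2 had 0 to 3 reads per library, while Cd247 had 148 to 193 and Trac 25 to 35. Of the B and plasma cell genes only Cd79b was tested, with 53 and 23 reads with saline against 7 and 10 with immune complex. All 5 thick ascending limb genes had a lower fitted level, and 1 of them, Cldn19, had groups apart. Several lists of other cell types moved with the groups or with a single library, and 4 of them follow. All 13 macrophage and dendritic cell genes tested were higher with immune complex by fitted level, and 9 of them had groups apart. Their sums were 471 and 359 CPM with saline against 489 and 543 CPM with immune complex. Most of these sums came from Cd74 and Csf1r, whose groups overlapped. Cd74 had 277 and 148 against 243 and 258 CPM, and Csf1r 80.0 and 99.4 against 77.6 and 106 CPM. All 10 adipocyte genes were also higher; without Pck1, which kidney tubules express too, the other 9 had groups apart and summed to 77.3 and 507 against 1539 and 1151 CPM, so that saline 1 had little adipocyte RNA (3 Adipoq reads, 0 Lep reads). All 7 urothelium genes had a lower fitted level. Of them, Psca and Upk3b had groups apart, with sums of 70.1 and 40.4 against 5.20 and 7.84 CPM, whereas the other 5 summed to 5.31 and 51.9 against 11.2 and 10.5 CPM and were high in saline 2 alone. All 6 collecting duct principal cell genes had a lower fitted level, with sums of 2031 and 771 against 763 and 486 CPM. Aqp2 made up most of these sums, with 1704 and 544 against 528 and 302 CPM. The other 5 summed to 327 and 227 against 235 and 184 CPM, and 1 of them had groups apart. No gene of these 4 lists was at 0 in all libraries, none had an adjusted p under 0.05 in edgeR's test, and the part of these cell types in the receptor values was not tested. In such bulk RNA, fewer cells of a type and less RNA per cell cannot be told apart.

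By RPKM, 7 receptors had a mean of 10 or more over the 4 libraries, 16 lay from 1 up to 10, 27 from 0.1 up to 1, and 20 under 0.1. The median over the 70 genes was 0.437 RPKM. The leading receptor was Tnfrsf21, which encodes death receptor 6, with 92.2 ± 11.5 RPKM (SD, n = 4 libraries). It held 28.4% to 37.7% of the summed RPKM of all 70 genes. Below it came Tnfrsf1a, the main TNF receptor, with 25.1 ± 3.18 RPKM, Tnfrsf12a, which encodes Fn14, with 20.8 ± 6.96, and Il6st, which encodes the shared chain gp130, with 17.0 ± 2.28. The next places belonged to Il10rb (13.8 ± 1.81), Il13ra1 (13.3 ± 1.74) and Il11ra1 (12.5 ± 2.51); the values of these 3 overlapped between libraries. The levels of Ifngr1, Ifnar2, Ifnar1, Il17ra, Ifngr2, Il17rc, Lifr and Il17re followed between 9.51 and 6.60 RPKM, and neighbours in that order did not differ beyond their spread over libraries. Of the 10 receptors highest by RPKM, 7 were also among the 10 highest by CPM.

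**Figure D1:**
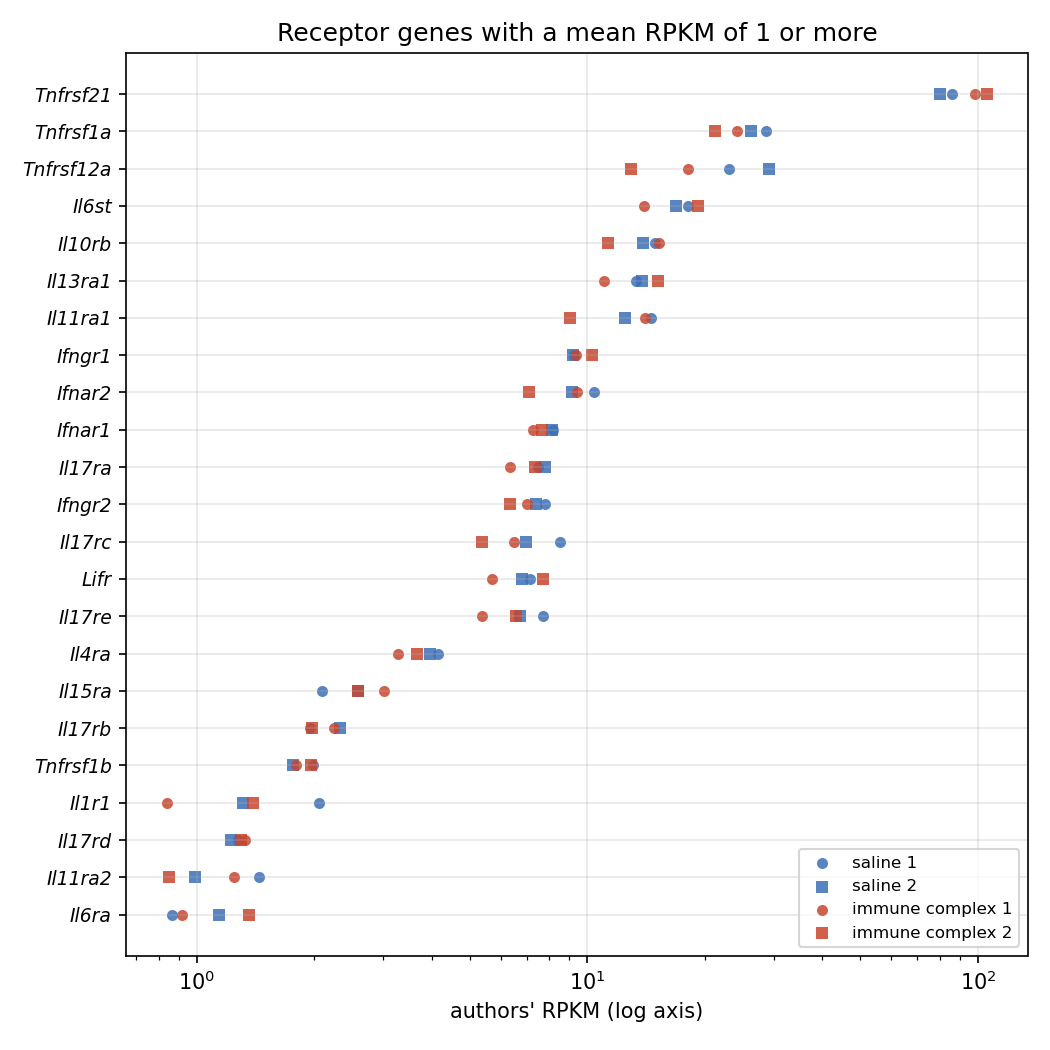
RPKM (log axis) of the 23 receptor genes with a mean of 1 or more, ordered by mean; each point is 1 library, blue for saline and red for immune complex, a circle for replicate 1 and a square for replicate 2. Tnfrsf21 stands alone at 79.9 to 105 RPKM. Of the genes below it, some have saline and immune complex points mixed, while others, such as Tnfrsf12a and Ifngr1, have them apart.

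Il6st and Il10rb, chains shared by several cytokines, were more abundant than the partner chains compared here. Il11ra1 of the gp130 family was not compared. It had a mean of 12.5 RPKM beside 17.0 for Il6st, and in immune complex 1 the values were 14.1 and 13.95 RPKM. Few of its reads, 23.3%, were uniquely placed. Il6st exceeded Il6ra, the IL-6 binding chain, by 14.1 to 20.9 times in RPKM, and Osmr, the oncostatin M receptor, by 38.3 to 44.8 times, whereas its excess over Lifr, the leukemia inhibitory factor receptor, was 2.44 to 2.54 times. Il10rb, the second chain for IL-10, IL-22 and interferon lambda, exceeded Il10ra by 16.9 to 23.1 times and Il22ra1 by 17.0 to 27.9 times. Other shared chains were less abundant than a partner. Il4ra exceeded Il2rg, the common gamma chain, by 3.79 to 8.65 times, and Il1r1 exceeded Il1rap, the shared accessory chain, by 1.70 to 2.86 times. The interferon chains were near balance: Ifngr1 over Ifngr2 was 1.18 to 1.62 and Ifnar2 over Ifnar1 was 0.924 to 1.30. The 3 most abundant IL-17 receptor chains were also near balance, with Il17rc over Il17ra at 0.735 to 1.14 and Il17re over Il17ra at 0.845 to 1.03. RPKM assumes the annotated exon length, so these ratios hold for that length.

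The comparison of immune complex with saline used 52 receptors with enough reads. The other 18 had at most 37 reads over the 4 libraries and include Tnfrsf11b, Il7r, Il21r, Il1r2 and Il1rn. No receptor passed an adjusted p of 0.05 in edgeR's quasi-likelihood test with Benjamini-Hochberg adjustment, where the lowest adjusted p among them was 0.974, and no gene of all 16334 tested passed either (0%). At an unadjusted p under 0.05, 3 receptors were lower (5.77% of 52) beside 2.6% of all genes, and no receptor was higher beside 1.98%. The lower ones include Tnfrsf8, which passed the read filter only through its saline libraries, where its reads were higher. DESeq2 called 0 of the 47 receptors and 0.664% of the 15067 genes to which it gave an adjusted p, and limma-voom called 0 receptors and 0 genes. In the authors' deposited table, 51 receptors are listed and 0 have an adjusted p under 0.05, beside 0.496% of 16128 genes.

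The receptor differences were small in most cases: 23 had a higher and 29 a lower fitted level with immune complex, the median log2 difference was -0.06 beside 0.01 over all genes, and 44 of 52 lay under 1.5-fold either way. Leaving out Il31ra, Il1rapl1 and Il1rapl2, which were read almost wholly in introns, 22 were higher and 27 lower, with a median of -0.06. Scaled by library totals without TMM factors, 36.5% of receptors had a higher level in place of 44.2%, and 40.7% of all genes in place of 51.9%. The 95% interval of the log2 difference covered 0 for 49 receptors, and for 26 it excluded a 2-fold change in both directions. In 9 receptors (17.3%) both immune complex libraries lay above both saline libraries, beside 15.4% of all genes, and in 14 (26.9%) both lay below, beside 14.6%. The receptors were measured in the same libraries, so these shares are a description.

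**Figure D2:**
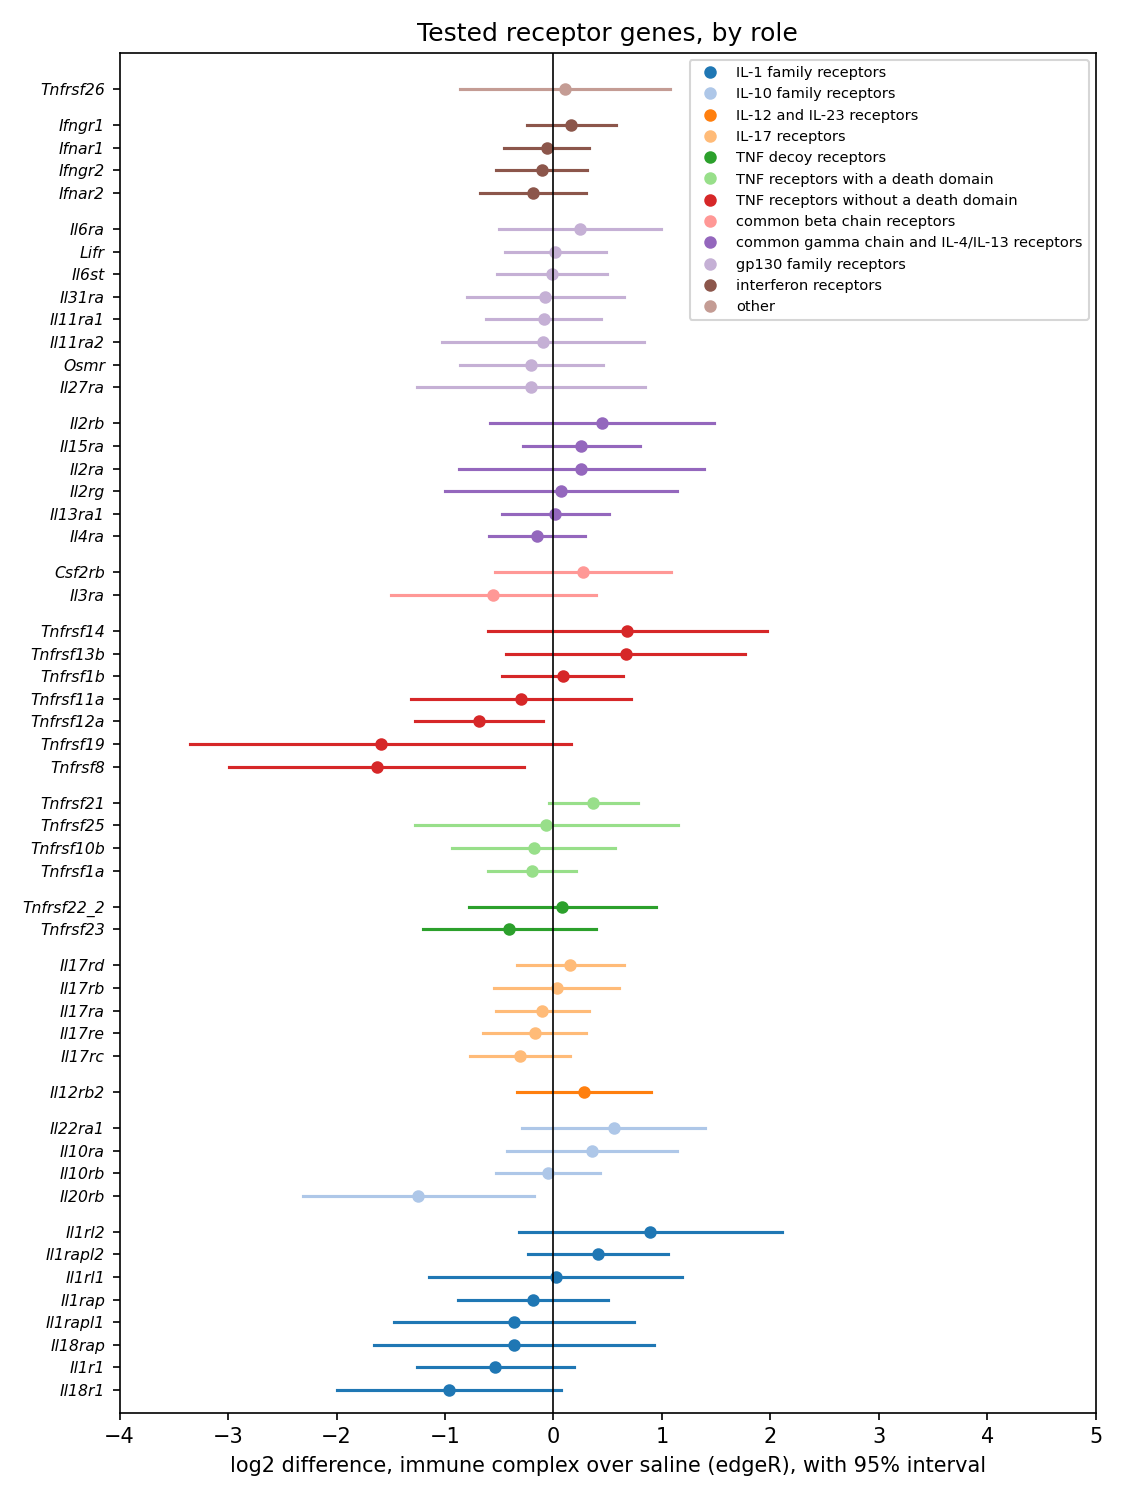
Log2 difference of immune complex over saline for the 52 tested receptors, grouped and coloured by role; points are edgeR estimates and lines their 95% intervals. The intervals of Tnfrsf12a, Il20rb and Tnfrsf8 lie below 0, and the other 49 cover 0.

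Of the 4 death domain receptors, Tnfrsf21 had a higher fitted level with immune complex and the other 3 a lower one. Tnfrsf21 had 304 and 292 CPM with saline against 371 and 398 CPM with immune complex. Both immune complex values were above both saline values. The log2 difference was 0.37 ± 0.17 (SE; 95% interval -0.04 to 0.78), with an unadjusted p of 0.073 and an adjusted p of 0.99997 in edgeR's quasi-likelihood test. Tnfrsf1a showed 72.6 and 68.0 CPM in saline against 65.2 and 57.2 CPM, a log2 difference of -0.20 ± 0.17 with groups that did not overlap. Tnfrsf10b, the mouse receptor for the death ligand TRAIL, and Tnfrsf25, the receptor for TL1A, were scarce at 0.757 and 0.306 mean RPKM, with intervals that covered 0.

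Tnfrsf12a encodes Fn14, a small receptor for TWEAK that lacks a death domain and is known to be induced in injured epithelium. It had 21.5 and 28.1 CPM with saline against 18.0 and 12.9 CPM with immune complex. All values of the immune complex group were below those of the saline group. The log2 difference was -0.69 ± 0.25 (95% interval -1.28 to -0.10), with an unadjusted p of 0.028 and an adjusted p of 0.985 in edgeR's quasi-likelihood test; in the authors' deposited table its p is 0.0198 and its adjusted p 0.845. Fn14 is the receptor above 1 RPKM with the lowest p, and Tnfrsf21 the one with the highest level, so the 250 bases before the RefSeq start of each are shown (GRCm38.p6, in the direction of transcription). Capitals mark GC boxes, GGGCGG on either strand; Tnfrsf21 lies at chr17:43016305-43016554 on the plus strand and Tnfrsf12a at chr17:23677450-23677699 on the minus strand.
Tnfrsf21: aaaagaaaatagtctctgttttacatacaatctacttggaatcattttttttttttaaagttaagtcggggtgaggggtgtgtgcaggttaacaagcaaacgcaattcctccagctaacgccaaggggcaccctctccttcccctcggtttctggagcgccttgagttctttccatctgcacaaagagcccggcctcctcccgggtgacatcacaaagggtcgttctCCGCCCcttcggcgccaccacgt
Tnfrsf12a: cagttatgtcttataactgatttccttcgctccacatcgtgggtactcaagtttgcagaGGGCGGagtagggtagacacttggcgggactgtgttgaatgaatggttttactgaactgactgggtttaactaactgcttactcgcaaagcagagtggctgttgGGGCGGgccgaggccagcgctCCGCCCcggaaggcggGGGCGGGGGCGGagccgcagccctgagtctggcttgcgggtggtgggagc
The Tnfrsf12a stretch holds 5 GC box matches and the Tnfrsf21 stretch 1. Over all receptors, 57 of 69 symbols matched the RefSeq table, with 69 promoters. For 10 symbols several promoters were counted, so the 69 are not separate genes. A GC box was found in 29 of these 69 (42.0%), beside 32.7% of 32851 promoters of the same length. The letters TTCNNNGAA, the core bound by STAT factors, were in 11 (15.9%, beside 7.02% of all promoters). TGANTCA, bound by AP-1, was in 9 (13.0%, beside 6.75%). The NF-kB motif was in 7 (10.1%, beside 7.25%), and TATAAA in 4 (5.80%, beside 12.4%). Both strands were searched, and a match in letters is not evidence of binding.

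Tnfrsf8, which encodes CD30 of activated lymphocytes, had 14 and 13 reads with saline against 6 and 3 reads with immune complex. That is 0.689 and 0.615 against 0.269 and 0.142 CPM, with both immune complex libraries below, and 69.4% of its reads lay in introns. Its log2 difference was -1.63 ± 0.57, with an unadjusted p of 0.025 and an adjusted p of 0.974 in edgeR's quasi-likelihood test. Tnfrsf8 was tested only because its saline reads passed the read filter, so its selection and its direction are not independent. DESeq2's test gave it an unadjusted p of 0.154 and no adjusted p.

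Tnfrsf19, which encodes TROY, a receptor of epithelial and neural progenitors, had 4.03 and 1.47 CPM with saline against 0.358 and 1.46 CPM with immune complex. The second library of each group was nearly equal, and the distance between the groups came from saline 1 and immune complex 1. The log2 difference was -1.59 ± 0.73 with an adjusted p of 0.99997 in edgeR's quasi-likelihood test over all 4 libraries. Without saline 2 it was -2.16, with an adjusted p of 0.0199, beside 1.65% of genes called in that fit, in which the lone saline library is assumed to vary like the immune complex pair; without saline 1 it was -0.69 and without immune complex 2 it was -2.92. Principal cell genes summed to 2031, 771, 763 and 486 CPM in saline 1, saline 2, immune complex 1 and immune complex 2. Most of this was Aqp2, and the other 5 summed to 327, 227, 235 and 184 CPM. Both sums were highest in saline 1, as Tnfrsf19 was, but lowest in another library than Tnfrsf19. Of the single genes, Scnn1b was highest in immune complex 1, with 57.6 CPM against 54.7 CPM in saline 1. The part of principal cells in the Tnfrsf19 values was not tested. Tnfrsf14, which encodes HVEM, had 0.984, 0.804, 2.06 and 0.803 CPM in the order saline 1, saline 2, immune complex 1 and immune complex 2; a single library was high. Its log2 difference of 0.68 ± 0.54 turned to -0.15 without that library. Tnfrsf13b, which encodes TACI, a receptor of B cells, was at 0.443 and 0.710 against 0.986 and 0.851 CPM, a log2 difference of 0.66 ± 0.46 from 9 to 22 reads per library. Tnfrsf1b, the second TNF receptor, was at 7.58 and 7.00 against 7.39 and 8.08 CPM, and its groups overlapped.

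The decoy receptors bind ligand without signalling. Tnfrsf22_2 and Tnfrsf23, mouse decoy receptors for TRAIL, had mean levels of 0.744 and 0.673 RPKM. Only 40.4% of Tnfrsf22_2 reads were uniquely placed, and Tnfrsf22_1 covers part of the same locus, so its level is uncertain. Tnfrsf23 had 2.90 and 2.37 CPM with saline against 1.84 and 2.13 CPM with immune complex, groups that did not overlap, with a log2 difference of -0.41 ± 0.33. Tnfrsf11b, which encodes osteoprotegerin, the decoy for RANKL, was under the read threshold with 7, 5, 8 and 17 reads.

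**Figure D3:**
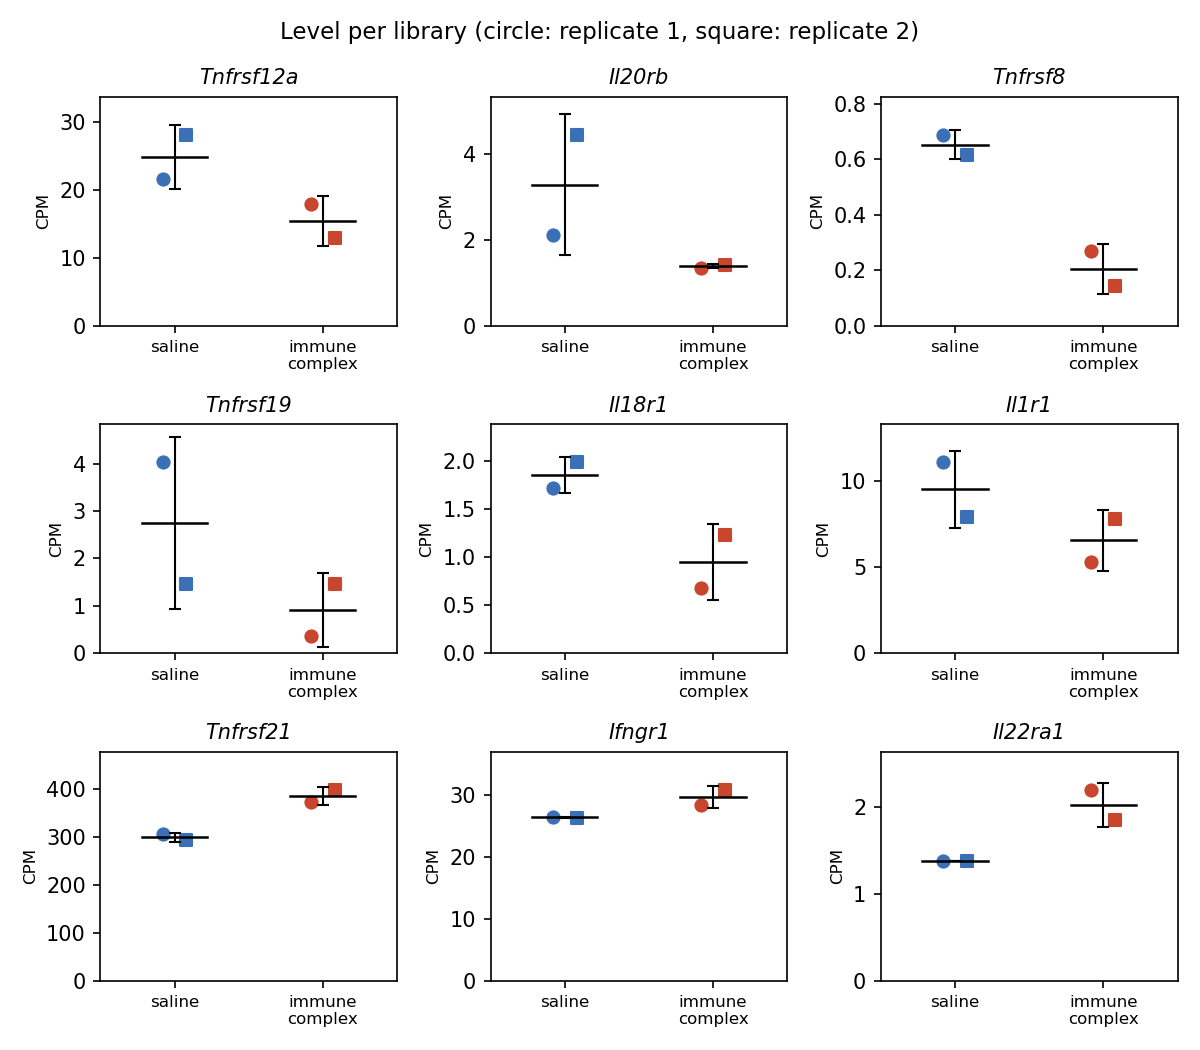
CPM of 9 receptors in each library; circles are replicate 1 and squares replicate 2, the wide bar is the group mean and the whiskers its SD (n = 2). The immune complex libraries are lower for Tnfrsf12a, Il20rb, Tnfrsf8 and Il18r1 and higher for Tnfrsf21, Ifngr1 and Il22ra1, while for Tnfrsf19 and Il1r1 the second libraries of the groups nearly meet.

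In the gp130 family no receptor had groups apart. Il6st stood at 196 and 187 CPM with saline against 160 and 220 CPM with immune complex. The lowest and the highest value were both from the immune complex group, and the log2 difference was -0.01 ± 0.21. Lifr had 72.6 and 71.0 against 62.5 and 82.6 CPM, with immune complex 1 again lowest and immune complex 2 highest. Il6ra was at 3.39 and 4.26 against 3.85 and 5.25 CPM (log2 difference 0.25 ± 0.31) and Osmr at 6.25 and 5.58 against 4.44 and 5.81 CPM (-0.21 ± 0.28).

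Few reads of the IL-11 receptor genes were uniquely placed. Il11ra1 had 121 and 114 against 131 and 89.8 CPM, but 23.3% of its reads were uniquely placed and 50.9% lay in introns, and the span of its row on chromosome 4 also covers Dctn3, Galt and other genes. Il11ra2 had 37, 28, 37 and 27 reads, with 0 uniquely placed in every library. In GENCODE M21 transcripts its coding sequence of 1299 bases differs from that of Il11ra1 at 13 bases (99.0% identity) and is identical to that of Gm13305. The 90 coding bases from position 1027 to 1116 were chosen because no other stretch of that length holds more differences. They hold 4 of the 13, while the longest stretch without a difference is 356 bases. Capitals mark the differing bases.
Il11ra1: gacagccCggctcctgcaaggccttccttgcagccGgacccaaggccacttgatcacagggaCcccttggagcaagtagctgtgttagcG
Il11ra2: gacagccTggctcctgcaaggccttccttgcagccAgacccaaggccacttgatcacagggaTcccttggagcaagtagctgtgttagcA
The level of each copy is therefore uncertain.

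**Figure D4:**
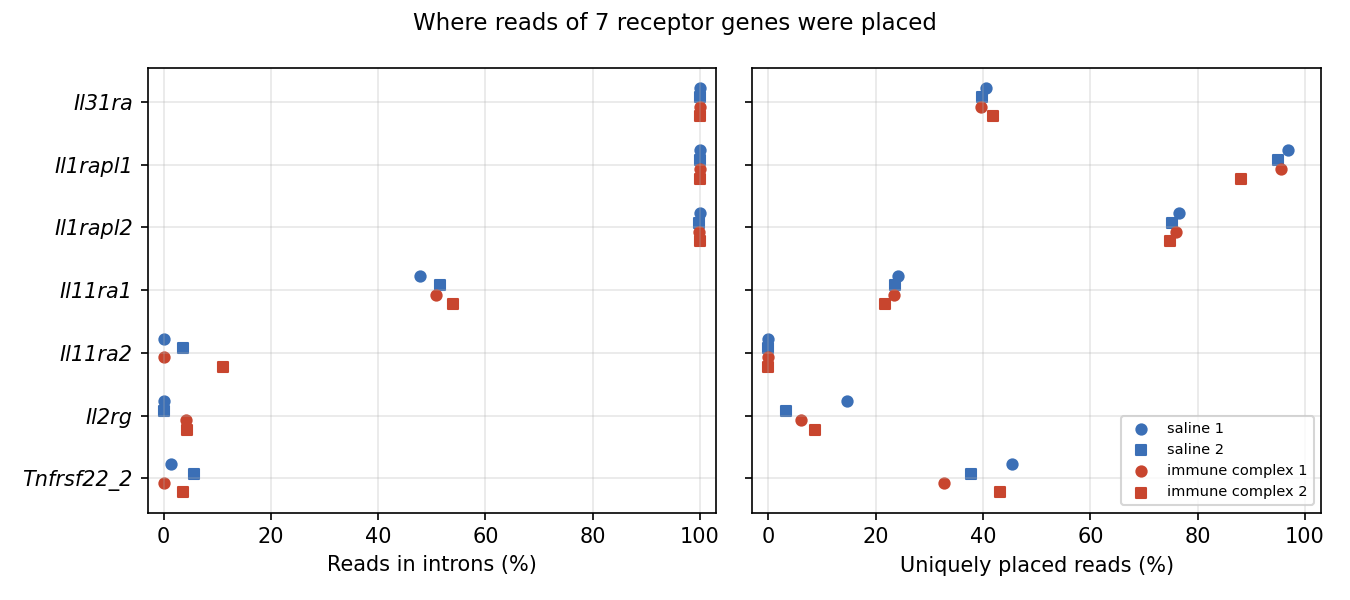
Share of reads in introns (left, %) and share of uniquely placed reads (right, %) for 7 receptor genes; each point is 1 library, blue for saline and red for immune complex. Il31ra, Il1rapl1 and Il1rapl2 lie at or near 100% in introns, and Il11ra2 lies at 0% uniquely placed in all 4 libraries.

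Reads of 3 further genes came almost wholly from introns. Il31ra, the IL-31 chain that pairs with Osmr, had 21926 and 22953 reads with saline against 30009 and 15019 with immune complex, of which 0, 0, 1 and 2 were exon reads. Il1rapl1, a synaptic IL-1 receptor relative, had 9374, 8180, 11030 and 3482 reads, again with 0, 0, 1 and 2 in exons. With Il1rapl2 they made up 55.6%, 55.3%, 60.1% and 41.0% of all reads of the 70 genes. Their mean levels by exon reads were 0.00929, 0.00364 and 0.00488 RPKM for Il31ra, Il1rapl1 and Il1rapl2. Since total reads include introns, their CPM describes intron reads and not spliced receptor transcripts.

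Of the 8 IL-1 family receptors, 3 had a higher and 5 a lower fitted level, with a median log2 difference of -0.28, and none passed the test. These counts include Il1rapl1, with a lower level, and Il1rapl2, with a higher one, both read almost wholly in introns. Il1r1, the signalling IL-1 receptor, had 11.1 and 7.90 CPM with saline against 5.29 and 7.80 CPM with immune complex. Saline 2 and immune complex 2 were nearly equal, and the log2 difference was -0.54 ± 0.30. Il18r1, the IL-18 binding chain, was at 1.72 and 1.99 against 0.672 and 1.23 CPM, with both immune complex libraries below. Its log2 difference was -0.96 ± 0.43 with an unadjusted p of 0.063 and an adjusted p of 0.99997 in edgeR's quasi-likelihood test. Il1rl2, the IL-36 receptor, had 0.394 and 0.520 against 0.627 and 1.09 CPM from 8 to 23 reads per library (log2 difference 0.89 ± 0.51). Il1rl1, which encodes the IL-33 receptor ST2, had 0.541, 1.09, 0.851 and 0.803 CPM, and its groups overlapped. The shared accessory chain Il1rap was at 8.26, 5.49, 6.14 and 5.91 CPM, with saline 1 highest; 54.6% of its reads were uniquely placed, and Gm20319 overlaps it. The decoy Il1r2 had 4 or 5 reads in each library and the antagonist Il1rn 1 to 5.

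In the IL-10 family, Il20rb, the shared chain for IL-19, IL-20 and IL-24, had 2.12 and 4.45 CPM with saline against 1.34 and 1.42 CPM with immune complex. Both immune complex values were below, and saline 2 was highest. The log2 difference was -1.25 ± 0.44, with an unadjusted p of 0.028 and an adjusted p of 0.981 in edgeR's quasi-likelihood test, and it was -0.62 without saline 2. Of the 7 urothelium genes, Psca and Upk3b lay lower in both immune complex libraries and the other 5 were highest in saline 2, as Il20rb was, but lowest in saline 1. The part of urothelium in the Il20rb values was not tested. Il22ra1, the IL-22 binding chain of epithelia, was at 1.38 and 1.37 against 2.20 and 1.84 CPM (log2 difference 0.55 ± 0.35, unadjusted p 0.162 in edgeR's quasi-likelihood test), groups that did not overlap. Il10ra, a chain of macrophages and other leukocytes, was at 2.66 and 2.37 against 3.67 and 2.74 CPM, also without overlap, beside the macrophage sums given above. Il10rb overlapped, at 56.0 and 53.4 against 60.8 and 44.9 CPM.

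The 4 interferon receptor genes were all between 7.13 and 9.51 mean RPKM and differed little. Ifngr1, the interferon gamma binding chain, had 26.5 and 26.4 CPM with saline against 28.4 and 30.9 CPM with immune complex. Both were above saline, with a log2 difference of 0.16 ± 0.17 and an interval of -0.25 to 0.58. Ifnar2, the binding chain for type I interferons, was at 34.6 and 31.8 against 33.3 and 24.95 CPM, with immune complex 2 lowest (log2 difference -0.19 ± 0.20). Uniquely placed reads made up 55.2% for Ifnar2 and 69.5% for Il10rb, and the annotated gene Gm21970 overlaps both. Ifnar1, the other type I chain, was at 48.7 and 49.2 against 45.4 and 48.2 CPM (log2 difference -0.06 ± 0.16). Ifngr2, the second interferon gamma chain, was at 26.6 and 26.3 against 25.7 and 23.4 CPM (-0.11 ± 0.17). In both genes the immune complex libraries lay below the saline libraries.

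All 5 IL-17 receptor genes were above 1 RPKM, from 1.28 for Il17rd to 7.24 for Il17ra. Il17rc, the partner of Il17ra for IL-17A and IL-17F, had 23.5 and 21.3 CPM with saline against 19.5 and 16.5 CPM with immune complex, without overlap (log2 difference -0.31 ± 0.19, unadjusted p 0.153 in edgeR's quasi-likelihood test). Il17ra, the chain common to the family, was at 29.2 and 31.3 against 26.1 and 30.2 CPM, with overlap. Il17re, the epithelial receptor for IL-17C, and Il17rb, the receptor for IL-25, had log2 differences of -0.17 and 0.03.

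Receptors of the common gamma chain and IL-4/IL-13 group were led by Il13ra1, at 48.0 and 51.2 against 42.2 and 58.1 CPM, and Il4ra, at 20.6 and 20.2 against 17.3 and 19.5 CPM. These 2 chains form the IL-4 and IL-13 receptor of non-blood cells, and Il13ra1 exceeded Il4ra by 3.21 to 4.13 times in RPKM. Il4ra had groups apart with a log2 difference of -0.15 ± 0.18, and Il13ra1 had 0.02 ± 0.21. Il2rg, the common gamma chain of lymphocyte receptors, was at 0.658 ± 0.185 RPKM (SD, n = 4 libraries), but 8.03% of its 23 to 49 reads per library were uniquely placed, and Gm20489 overlaps it. Il2rb, the chain shared by IL-2 and IL-15, was at 0.935 and 0.615 against 0.986 and 1.13 CPM, without overlap, from 13 to 24 reads. Il7r, the IL-7 receptor of lymphocytes, had 1, 4, 6 and 7 reads and was not tested. Il15ra, which presents IL-15, was the third of the group above 1 RPKM, with a log2 difference of 0.26 ± 0.23.

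Receptors of the common beta chain group and of the IL-12 and IL-23 group were scarce, with mean levels of 0.714 RPKM or less. Csf2rb, the shared beta chain for GM-CSF, IL-3 and IL-5, had 2.26 and 2.13 CPM with saline against 2.24 and 3.07 CPM with immune complex, with overlap (log2 difference 0.27 ± 0.34). Il3ra was at 1.43 and 1.61 against 1.21 and 0.851 CPM, with both immune complex libraries below (log2 difference -0.55 ± 0.39). Il12rb2, a chain of the IL-12 receptor, was at 5.71 and 5.82 against 6.18 and 7.84 CPM, but 76.1% of its reads were in introns. By exon reads its log2 difference of 0.28 became -0.04. Il12rb1, its partner, had 3 to 6 reads per library.

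The remaining tested receptors were Tnfrsf11a, which encodes the RANKL receptor RANK, with a log2 difference of -0.30, Il18rap with -0.36, Il27ra with -0.21, Tnfrsf26 with 0.11, Il17rd with 0.16 and Il2ra with 0.26, and the interval of each covered 0. Of the untested receptors, Tnfrsf17, which encodes the plasma cell receptor BCMA, had 0, 5, 3 and 3 reads. Tnfrsf13c, the BAFF receptor of B cells, had 1 read over all 4 libraries, as did Il22ra2, the soluble IL-22 decoy. Il20ra, the partner chain of Il20rb, had 3, 4, 7 and 9 reads, all of them in introns. Tnfrsf4, Tnfrsf9, Tnfrsf18, Tnfrsf22_1, Il5ra, Il9r, Il13ra2, Il21r and Il23r each had mean levels of 0.139 RPKM or less.

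The pathway around the receptors was described with lists of related genes, and none of their members passed an adjusted p of 0.05. Of 19 related receptors outside the naming rule, 17 were tested, with 6 above and 11 below 0 and a median log2 difference of -0.20. Epor, the erythropoietin receptor, had 19.97 and 7.47 CPM with saline against 5.78 and 2.88 CPM with immune complex. Both were below saline and saline 1 was highest, with a log2 difference of -1.66 ± 0.53, an unadjusted p of 0.018 and an adjusted p of 0.941 in edgeR's quasi-likelihood test; without saline 1 it was -0.79, and without saline 2 it was -2.21 with an adjusted p of 2.15e-05, again with a lone saline library assumed to vary like the immune complex pair. Of 34 cytokine ligands found in the files, 14 had enough reads, and 7 (Il2, Il3, Ifnb1, Il19, Il22, Il17a and Il17c) were at 0 in all 4 libraries. Il33, the ligand of ST2, was at 3.20 and 4.82 against 7.08 and 6.33 CPM, with both immune complex libraries above (log2 difference 0.74 ± 0.30, unadjusted p 0.047 and adjusted p 0.99997 in edgeR's quasi-likelihood test). The Il33 difference was 0.47 without saline 1 and 1.06 without saline 2, and DESeq2's test gave an unadjusted p of 0.066. Of 17 TNF family ligands, 7 were tested and the lowest p belonged to Ltb, lymphotoxin beta, at -0.36 ± 0.43. The 11 JAK and STAT genes had a median of -0.06, with the lowest p for Stat4 at 0.69 ± 0.54, and the 22 adaptors a median of -0.01, with the lowest p for Map3k14, the NF-kB inducing kinase, at -0.38 ± 0.21.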

How the data were processed

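RNA from part of a kidney kept in RNAlater was made into Illumina libraries at a commercial provider, per the labels' protocols. STAR 2.5.2b, DESeq2 and the build GRCm38 are named in the submitters' processing notes. The counter, annotation release and strand use were not given in the sources used here, so reads of overlapping genes cannot be separated. Per the file headers, the deposited tables hold raw read counts per gene (total, unique, exon, intron), lengths in bases, and RPKM computed by the authors. RPKM was recovered from exon reads for about 99.7% of genes (relative tolerance 0.0001). The authors' deposited comparison gives log2 fold changes and p-values, coded saline over immune complex.

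Total gene reads were tested with edgeR 4.0.16 (R 4.3.3; TMM, filterByExpr, glmQLFit, glmQLFTest; 2 libraries per group, adjusted p threshold 0.05) over all genes. Residual degrees of freedom were 2, prior ones 4.61, with a common biological coefficient of variation of 0.212. Intervals are 95%. CPM uses TMM-scaled totals. DESeq2 1.42.0, limma 3.58.1, other scalings, exon or unique reads, no filter, replicate blocks and leaving out each library were alternatives. Of these tests, edgeR's quasi-likelihood test alone was run on simulated data, and that outcome is not given here. Receptors and lists were chosen with earlier results of these data known. Receptors described singly had an unadjusted p under 0.05, were among the 2 most abundant of their role or the 5 largest differences in a direction, or were on a list of 18 well-known receptors; pathway genes had an unadjusted p under 0.05 or the lowest p of their list. A few items are not reported here. Promoters come from RefSeq (GRCm38.p6) and coding sequences from GENCODE M21.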

Additional observations from a re-analysis of the deposited data

How the results depend on the processing

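The count of genes called was 0 in the reported fit and lay between 0 and 279 when each library was left out (47 without saline 1, 279 without saline 2, 0 without either immune complex library). DESeq2 called 100, edgeR without a filter on low counts 2, edgeR on unique reads 1, and limma-voom, exon reads and the other scalings 0. Receptors called numbered 0 in every alternative except without saline 2, where 1 was called, so the range over the left-out libraries was 0 to 1. For the pathway lists that range was 0 to 2, with Epor among those called without saline 2. Replicate numbers are shared between groups, but same-numbered libraries did not deviate together (correlation -0.13). With the replicate number as a block, 55 genes, 0 receptors and 1 pathway gene (Epor) were called; the pairing crossed, an alternative chosen after seeing the data, called 160 genes, 0 receptors and 1 pathway gene. The median log2 difference of the receptors was -0.06, and it lay between -0.075 and 0.0094 over the left-out libraries, -0.12 under library totals, -0.0041 without the filter and -0.040 on exon reads. The same library totals put the median of all genes at -0.05 in place of 0.01. Of 312 values for 35 receptors described singly, leave-one-out fits aside, 12 had the other direction and 0 were past the adjusted threshold. All 12 were near 0: Il1rl1 was -0.039 under library totals and -0.040 on exon reads, Il12rb2 -0.040 and Il6st 0.0080 on exon reads, Tnfrsf22_2 -0.039 on unique reads and Lifr -0.048 under library totals. Il13ra1 was -0.0014 in the block fit, -0.0015 in the crossed one, -0.0025 with limma-voom and -0.047 under library totals, and Il2rg was -0.00031 in the block fit and -0.011 with limma-voom. Without 1 library, 23 of the 35 kept their direction in all 4 fits and 12 did not. The ranges of these 12 were -0.39 to 0.60 for Il1rl1, -0.39 to 0.16 for Il11ra1, -0.15 to 1.2003 for Tnfrsf14, -0.21 to 0.00078 for Il17ra, -0.18 to 0.38 for Tnfrsf22_2, -0.26 to 0.20 for Il6st, -0.20 to 0.20 for Lifr, -0.47 to 0.13 for Il1rap, -0.41 to 0.0032 for Ifnar2, -0.28 to 0.15 for Il10rb, -0.23 to 0.23 for Il13ra1 and -0.53 to 0.48 for Il2rg. The cause of these shifts was not tested. With 2 libraries a group, the median half-width of the 95% interval was 0.74 on the log2 scale.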
